A study of Homo sapiens with 16 samples.

Results

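The replication-dependent histone genes encode the bulk of the histones that package new DNA. They were taken from the deposited expression table as every protein-coding gene whose GENCODE 29 name starts with HIST1H, HIST2H, HIST3H or HIST4H followed by a histone class. This rule found 71 of the 58735 genes, namely 6 linker histone H1 genes, 17 H2A, 18 H2B, 15 H3 and 15 H4 genes. Of these, 14 reached a mean of 1 FPKM (fragments per kilobase of exon, scaled by depth) over the 16 libraries, and 57 stayed below it. RNA came from U2OS, a human osteosarcoma cell line, collected 48 h after transfection with siNT, a control siRNA without a target, or with siSETD2, which targets SETD2, the methyltransferase that trimethylates lysine 36 of histone H3. For the last 4 h the cells were left untreated or received 2 mM hydroxyurea (HU), 2 µM VE-822, or HU and VE-822 together. HU starves DNA synthesis of deoxynucleotides. VE-822 is an inhibitor of ATR, the kinase that answers stalled forks. Each of the 8 groups held 2 libraries, numbered R1 and R2. The labels do not say that these were separate cultures, so a p-value here measures only how these libraries scatter, and that scatter may be technical.

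Replication-dependent histone genes lie in clusters, have no introns in their classical form and are transcribed in S phase under NPAT. Their mRNA does not end in a poly(A) tail but in a short stem-loop, which the stem-loop binding protein SLBP recognises and the U7 particle, with LSM10, LSM11 and ZNF473, helps to form. When DNA synthesis is blocked, this mRNA is known to be degraded through SLBP, UPF1, uridylation and the exonuclease ERI1. Some of these genes also make transcripts that read past the stem-loop and carry a poly(A) tail. The labels name the NEBNext Ultra kit and total RNA, and whether poly(A) RNA was selected is not given in the sources used here.

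The stem-loop is shown here because it defines the class. The letters GGCNCTTTTNAGNGCC were found on the coding strand in the GENCODE 29 transcripts of 31 of the 71 genes. Of these 31, 9 were among the 14 with a mean of 1 FPKM. Whole transcripts were searched, and the place of the letters relative to the stop codon was not checked. Over all 19702 genes with a protein-coding transcript, 34 (0.173%) held them, so 3 were not histone genes of this set. For these 9, the capitals mark the 16 bases of the stem-loop, with 5 bases on each side.
HIST1H2AC: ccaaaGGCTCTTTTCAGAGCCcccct
HIST1H2AG: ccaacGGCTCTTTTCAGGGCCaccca
HIST1H2BC: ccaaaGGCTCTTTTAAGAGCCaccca
HIST1H2BD: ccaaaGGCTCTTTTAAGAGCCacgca
HIST2H2BE: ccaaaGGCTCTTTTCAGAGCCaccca
HIST1H4H: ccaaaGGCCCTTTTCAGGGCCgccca
HIST1H4I: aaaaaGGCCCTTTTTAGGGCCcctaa
HIST1H4J: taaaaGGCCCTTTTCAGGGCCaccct
HIST4H4: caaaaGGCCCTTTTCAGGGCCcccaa
The H2A and H2B stems open with GGCTC and the H4 stems with GGCCC. In 7 of the 9 the annotated transcript runs at least 100 bases past the stem-loop, from 116 bases in HIST1H2BC to 1761 in HIST1H2AG. It runs 39 bases past it in HIST1H2BD and 6 in HIST1H4J.

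How far the annotated gene model reaches past the stop codon differed widely. In 35 genes the model ends at the stop codon, so fragments from beyond it are not counted, and 3 of these 35 (8.57%) reached 1 FPKM. They were HIST1H2BK, HIST1H1C and HIST2H2AC. In 11 genes the model runs past the stop codon by fewer than 200 bases, and 1 of these reached 1 FPKM. In 25 genes it runs at least 200 bases past the stop codon, and 10 of these (40%) did. Of the 12 genes listed at 0 in all 16 libraries, 11 have a model that ends at the stop codon. These shares describe deposited values that rest on the annotation as well as on the RNA.

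**Figure D1:**
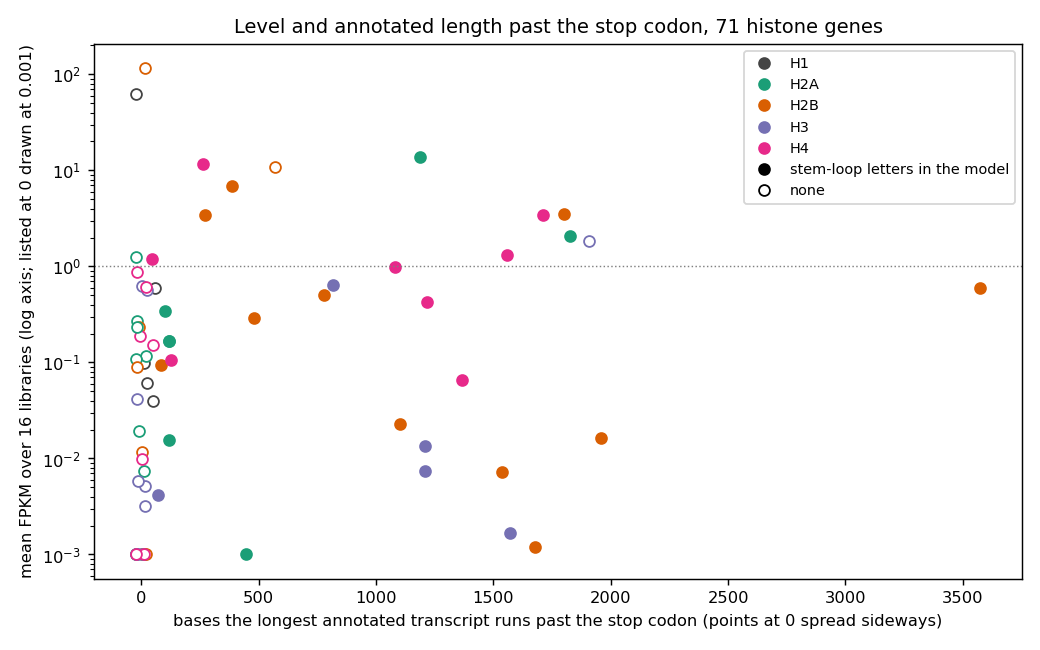
Mean FPKM over the 16 libraries (log axis) against the number of bases that the longest annotated transcript runs past the stop codon, 1 point for each of the 71 genes, coloured by histone class and filled where the stem-loop letters were found; points at 0 bases are spread sideways and genes listed at 0 are drawn at 0.001 FPKM. Of the 25 genes at 200 bases or more, 10 lie above the dotted line at 1 FPKM, against 3 of the 35 genes at 0 bases.

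Upstream of the genes, RefSeq promoters (GRCh38.p14) matched 61 of the 71. In the 150 bases before the start, both strands searched, the octamer ATTTGCAT, the site of the POU factor POU2F1, was found in 14 of 18 H2B promoters (77.8%), 5 of 14 H2A and 1 of 10 H3, and in none of the 6 H1 and 13 H4 promoters searched. Of all 27305 RefSeq promoters, 0.985% held it. The box CCAAT was found in 51 of the 61 (83.6%, against 24.4% of all promoters), which included every H1, H2A, H2B and H3 promoter matched and 3 of 13 H4 promoters. TATAAA was found in 33 of the 61 (54.1%, against 7.05%). No overlap between these motifs or between promoter windows was removed, and a match describes letters only. The H3 match, HIST1H3D, has the same window as HIST1H2AD. The octamers of HIST1H2AA, HIST1H2AC, HIST1H2AD and HIST1H2AM lie in bases shared with the windows of HIST1H2BA, HIST1H2BC, HIST1H2BF and HIST1H2BO. The same octamer is thus counted in more than 1 class.

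Promoters of the genes of highest mean, HIST1H2BK and HIST1H1C, of HIST1H2BJ, on which the HU comparison turns, and of HIST1H2BC, for comparison with the other H2B promoters, are shown, each the 150 bases before the RefSeq start on the minus strand of chromosome 6, 5′ to 3′. Capitals mark ATTTGCAT, CCAAT and TATAAA on either strand.
HIST1H2BK, chr6:27146859-27147008: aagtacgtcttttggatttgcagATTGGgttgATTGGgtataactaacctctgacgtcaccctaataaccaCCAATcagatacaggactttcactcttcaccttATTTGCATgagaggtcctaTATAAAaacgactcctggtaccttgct
HIST1H2BJ, chr6:27132796-27132945: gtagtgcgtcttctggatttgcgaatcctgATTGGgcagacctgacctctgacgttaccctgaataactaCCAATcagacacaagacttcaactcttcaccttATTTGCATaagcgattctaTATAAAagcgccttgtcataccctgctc
HIST1H2BC, chr6:26123927-26124076: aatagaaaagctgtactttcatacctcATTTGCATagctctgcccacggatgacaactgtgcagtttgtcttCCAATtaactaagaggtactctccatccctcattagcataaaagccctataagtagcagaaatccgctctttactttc
HIST1H1C, chr6:26056471-26056620: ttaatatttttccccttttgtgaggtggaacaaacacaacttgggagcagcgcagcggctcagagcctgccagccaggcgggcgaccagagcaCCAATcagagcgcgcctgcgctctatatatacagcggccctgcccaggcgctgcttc
HIST1H2BK and HIST1H2BJ share a CCAAT, an octamer and a TATAAA in this order. HIST1H2BC holds an octamer farther from the start and no TATAAA, and HIST1H1C holds a CCAAT alone.

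Each of these 3 H2B genes starts back to back with an H2A gene, and levels per length within such a pair were unequal. HIST1H2BK (mean 116 FPKM over 16 libraries) starts 330 bases from HIST1H2AH (0.268 FPKM), and HIST1H2BJ (10.7 FPKM) starts 291 bases from HIST1H2AG (2.10 FPKM). HIST1H2BC (3.41 FPKM) starts 218 bases from HIST1H2AC (13.8 FPKM), and HIST2H2BE (3.54 FPKM) starts 322 bases from HIST2H2AC (1.25 FPKM). The H2B partner was the higher in 3 of these 4 pairs. In each of them the H2B gene has a mean of at least 1 FPKM, which favours the H2B side. Pairs with a lower H2B gene, such as HIST1H2BL with HIST1H2AI, are not covered. The gene models within a pair also differ. That of HIST2H2AC ends at the stop codon, while that of HIST2H2BE runs 1729 bases past the stem-loop. Much of the HIST1H2BK sequence occurs in another gene as well. The part of the annotation in these unequal levels was not tested.

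Before the levels, 3 facts of the libraries bear on every result. Recovered totals were 22310806 to 31101932 fragments per library. SETD2 itself held 7.34 to 9.25 FPKM in the 8 siNT libraries and 2.01 to 4.62 FPKM in the 8 siSETD2 libraries, without overlap. The 4 libraries with VE-822 alone stand apart: R1 minus R2 correlated across genes at 0.363 to 0.746 in all 15 pairs drawn from the other 6 groups, against −0.0517 to 0.295 in the 12 pairs that include a single VE-822-alone group, and at 0.395 between both VE-822-alone groups. The drug and whatever else sets these 4 libraries apart cannot be told apart. Of the mesenchymal markers of U2OS, 7 of 11 had a mean of at least 1 FPKM, among them VIM, SPARC and RUNX2, and 4 of 6 epithelial, 1 of 7 blood and 0 of 3 endothelial markers did. The blood marker was CD3D, and PTPRC and HBB were below 1 FPKM.

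Across the 16 libraries the histone fragments were concentrated in few genes. HIST1H2BK held 24.3% and HIST1H1C 21.9% of the 74898 histone fragments, and the 5 genes with the most fragments held 73% together. By class the H2B genes held 31355 fragments, H1 16645, H4 12289, H2A 11981 and H3 2628. Per length HIST1H2BK, which encodes a core histone H2B, was highest at 116 FPKM, followed by HIST1H1C, the linker histone H1.2, at 62.0 FPKM. The next highest means were those of HIST1H2AC (13.8 FPKM), HIST1H4I (11.8) and HIST1H2BJ (10.7), and HIST1H2BD followed at 6.95. The ranges of HIST1H2AC, HIST1H4I and HIST1H2BJ over libraries, 6.0 to 32.2, 5.71 to 30.2 and 5.55 to 23.8 FPKM, overlapped, although these ranges include the difference between R1 and R2. Within libraries HIST1H2AC was above HIST1H4I in 13 of 16 and above HIST1H2BJ in 14 of 16, and HIST1H4I was above HIST1H2BJ in 11 of 16. HIST2H2BE (3.54), HIST1H4H (3.46) and HIST1H2BC (3.41) had no steady order, since HIST2H2BE was above HIST1H4H in 11 and above HIST1H2BC in 8 of 16 libraries.

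The threshold of 1 FPKM fell in a dense stretch of the levels. Just inside it lay HIST1H3E (1.85 FPKM), HIST4H4 (1.32), HIST2H2AC (1.25) and HIST1H4J (1.18). Just outside it lay HIST1H4E (0.989), HIST1H4K (0.867), HIST1H3H (0.648), HIST1H3A (0.621), HIST1H4D (0.604), HIST1H2BN (0.600), HIST1H1E (0.590), HIST1H3B (0.575) and HIST1H2BF (0.504). A further 48 genes had a mean below 0.5 FPKM. The 12 listed at 0 in every library were HIST1H1B, HIST1H2AA, HIST1H2AK, HIST1H2AL, HIST3H2A, HIST1H2BA, HIST1H2BI, HIST1H3C, HIST1H3D, HIST1H3I, HIST1H4F and HIST1H4L. The small nuclear RNA RN7SK and RMRP, made in every cell and without a poly(A) tail, are also listed at 0 in every library, so a 0 here does not show that a gene is silent.

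Near-identical copies limit several of these values, because the strand setting and the treatment of fragments with more than 1 position were not given in the sources used here. At least 50% of the 50-base windows of 17 of the 71 genes occur in another gene's transcripts. Among the 14, these are HIST1H2BK, with 74.1% of its windows shared, mostly with H2BFS, and HIST1H4J, with 81.2% shared with HIST1H4K. In 5 genes at least 50% of the exon bases lie in another gene's exon, none of them among the 14.

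**Figure D2:**
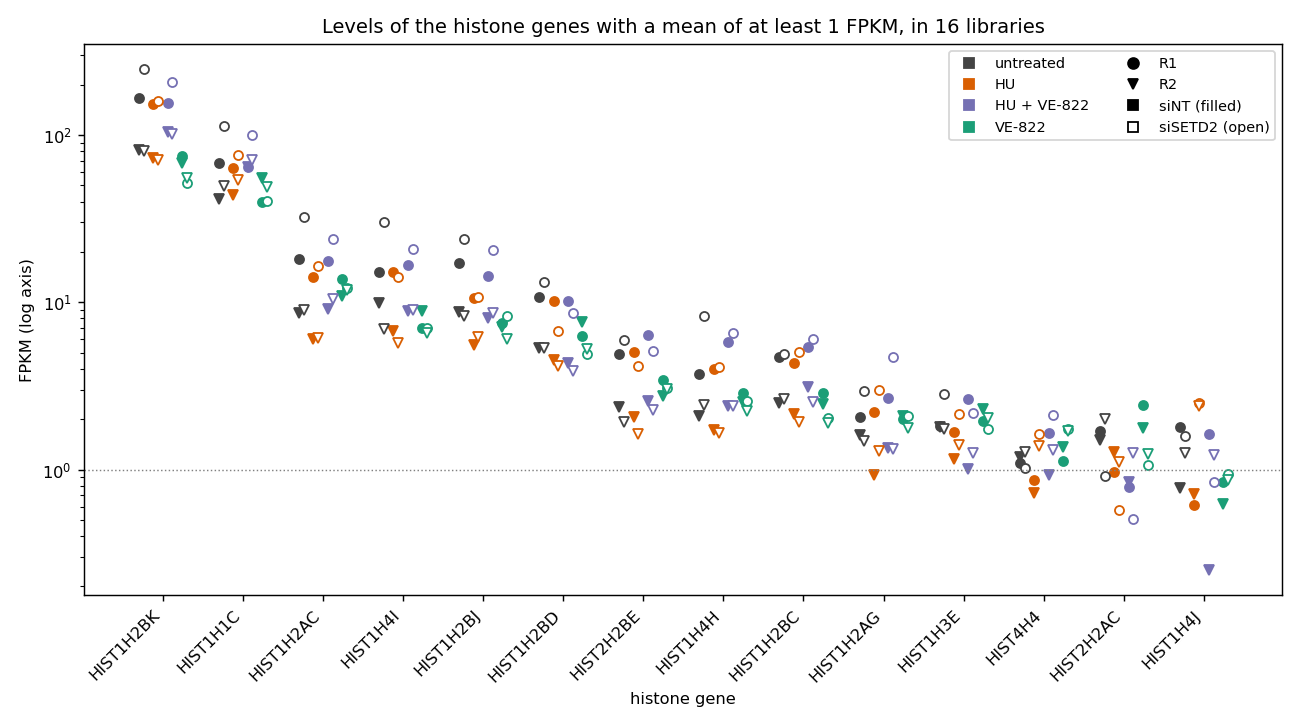
FPKM (log axis) of the 14 genes whose mean reached 1 FPKM in each of the 16 libraries, coloured by treatment, with circles for R1, triangles for R2, filled symbols for siNT and open symbols for siSETD2. For HIST1H2BK the R1 libraries without VE-822 alone lie at 153 to 248 FPKM, and the R2 libraries at 70.8 to 104 FPKM.

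Among the comparisons made here, the median difference of the 14 genes was largest between the library numbers R1 and R2. Leaving VE-822 alone aside, R2 was lower than R1 in 11 of the 14 genes by limma with the replicate block (a term for the library number in the other 6 groups, adjusted p under 0.05). Only HIST2H2AC was higher, by 0.30 ± 0.11 (log2(FPKM + 1), SE), with an adjusted p of 0.0447 that was lost with library totals, with voom, without the VE-822-alone libraries and in 8 of 12 fits without 1 library. Of all 13088 genes tested 41.2% passed in either direction, 19.2% lower and 22% higher. The 6 groups were kept because R1 minus R2 agreed among them across genes, which favours finding such differences. By limma with the block over all 8 groups, HIST1H1C (adjusted p = 0.139), HIST1H3E (0.0717) and HIST2H2AC (0.174) did not pass. The median difference was −0.88 over the 14 genes and 0.007 over all genes, on the log2(FPKM + 1) scale. The 6 R2 libraries all lay below the 6 R1 libraries in 9 of the 14, as in 7.24% of all genes.

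Gene values are given first for HIST1H2BK, the gene of highest mean (ENSG00000197903, chr6:27146418-27146798, minus strand, 1 exon that ends at the stop codon). In untreated cells it was read at 167 FPKM in R1 and 81.6 in R2 with siNT, and at 248 and 80.0 with siSETD2. In HU it was at 153 and 72.4 with siNT and at 159 and 70.8 with siSETD2. With HU and VE-822 it was at 156 and 104 with siNT and at 208 and 101 with siSETD2. Every R1 value of these groups was above every R2 value. With VE-822 alone the 4 values were 74.7, 67.8, 51.9 and 55.5 FPKM, all below the R1 values of the other groups, and 3 of them below every R2 value.

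HIST1H1C (ENSG00000187837, chr6:26055787-26056428, minus strand), the linker histone gene, differed less between the numbers. Untreated libraries held 67.6 FPKM in R1 and 41.4 in R2 with siNT, and 114 and 49.5 with siSETD2. In HU the values were 63.2 and 43.8 with siNT, and 75.8 and 53.8 with siSETD2. With HU and VE-822 they were 64.4 and 64.8, then 99.8 and 70.8. R1 exceeded R2 in 5 of these 6 groups, and the number sets overlapped. With VE-822 alone the values were 39.7 and 55.0 with siNT and 40.4 and 48.5 with siSETD2, where R2 was the higher.

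The H2A genes HIST1H2AC and HIST1H2AG were lower in R2 as well. HIST1H2AC (ENSG00000180573, chr6:26124145-26139116, plus strand) held 18.2 FPKM in R1 and 8.63 in R2 in untreated siNT cells, and 32.2 and 9.04 in untreated siSETD2 cells. In HU it held 14.2 and 6.0 with siNT and 16.6 and 6.15 with siSETD2, and with HU and VE-822 17.6 and 9.07, then 23.8 and 10.5. With VE-822 alone it held 13.8 and 11.0, then 12.1 and 11.8, between the number sets of the other groups. HIST1H2AG, at lower levels, had the same order of R1 and R2 in all 6 groups. Its values were 2.05 and 1.61 in untreated siNT, 2.96 and 1.48 in untreated siSETD2, 2.21 and 0.934 in HU with siNT, and 2.97 and 1.29 in HU with siSETD2. With HU and VE-822 they were 2.68 and 1.35, then 4.73 and 1.33, and with VE-822 alone 2.00, 2.09, 2.10 and 1.76.

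Among the H2B genes, HIST1H2BJ (ENSG00000124635, chr6:27125897-27132750, minus strand) is the one on which the HU comparison turns. It held 17.1 FPKM in R1 and 8.80 in R2 in untreated siNT cells, and 23.8 and 8.23 in untreated siSETD2 cells. HU libraries held 10.6 and 5.55 with siNT, and 10.8 and 6.18 with siSETD2, and libraries with HU and VE-822 held 14.4 and 8.06, then 20.6 and 8.63. Within either number, all HU values lay below all untreated values and all values with HU and VE-822. The share of all genes with this order was not counted. HIST1H2BJ is singled out by its call from these same values, so the order is not separate support. With VE-822 alone the values were 7.55, 7.10, 8.31 and 6.05 FPKM.

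The 3 other H2B genes above 3 FPKM had these levels. HIST1H2BD was at 10.8 and 5.35 FPKM (R1 and R2) in untreated siNT, 13.1 and 5.32 in untreated siSETD2, 10.1 and 4.52 in HU with siNT, 6.69 and 4.18 in HU with siSETD2, 10.1 and 4.34 with both drugs and siNT, and 8.65 and 3.86 with both drugs and siSETD2. HIST2H2BE, on chromosome 1, was in the same order at 4.89 and 2.35, 5.95 and 1.93, 5.01 and 2.05, 4.17 and 1.62, 6.39 and 2.55, and 5.14 and 2.26 FPKM. HIST1H2BC was at 4.74 and 2.49, 4.87 and 2.64, 4.32 and 2.15, 5.02 and 1.92, 5.38 and 3.13, and 6.05 and 2.54 FPKM. In all 3 genes every R1 value exceeded every R2 value. With VE-822 alone HIST1H2BD was at 4.90 to 7.65 FPKM, HIST2H2BE at 2.74 to 3.41 and HIST1H2BC at 1.89 to 2.88, of which only HIST2H2BE lay wholly between the number sets.

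Of the H4 genes, HIST1H4I and HIST1H4H had separate number sets. HIST1H4I (ENSG00000276180, chr6:27138588-27139881, plus strand) was at 15.2 and 9.87 FPKM in untreated siNT and at 30.2 and 6.89 in untreated siSETD2. In HU it was at 15.2 and 6.70, then 14.2 and 5.71, and with both drugs at 16.7 and 8.87, then 20.8 and 8.99. HIST1H4H was at 3.73 and 2.08 in untreated siNT and 8.32 and 2.42 in untreated siSETD2, at 3.96 and 1.73, then 4.09 and 1.65 in HU, and at 5.75 and 2.40, then 6.58 and 2.39 with both drugs. The lowest R2 to R1 ratio was 0.228 for HIST1H4I and 0.290 for HIST1H4H, both in untreated siSETD2 cells. With VE-822 alone HIST1H4I was at 7.01, 8.81, 7.04 and 6.50 FPKM, and HIST1H4H at 2.88, 2.53, 2.58 and 2.23.

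HIST1H3E (ENSG00000274750, chr6:26224199-26227473, plus strand) was the only H3 gene to reach 1 FPKM. It was at 1.83 and 1.79 FPKM in untreated siNT, 2.83 and 1.74 in untreated siSETD2, 1.69 and 1.15 in HU with siNT, 2.13 and 1.40 in HU with siSETD2, and 2.64 and 1.01, then 2.16 and 1.25 with both drugs. R1 was the higher in all 6 groups, with overlap between them. With VE-822 alone it was at 1.96, 2.29, 1.75 and 2.02. The 3 genes nearest the threshold did not separate the numbers. HIST4H4 ranged from 0.726 to 2.11 FPKM, HIST2H2AC from 0.506 to 2.43 and HIST1H4J from 0.250 to 2.50 over the 16 libraries, and HIST2H2AC and HIST1H4J rest on 200 and 184 fragments in all.

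**Figure D3:**
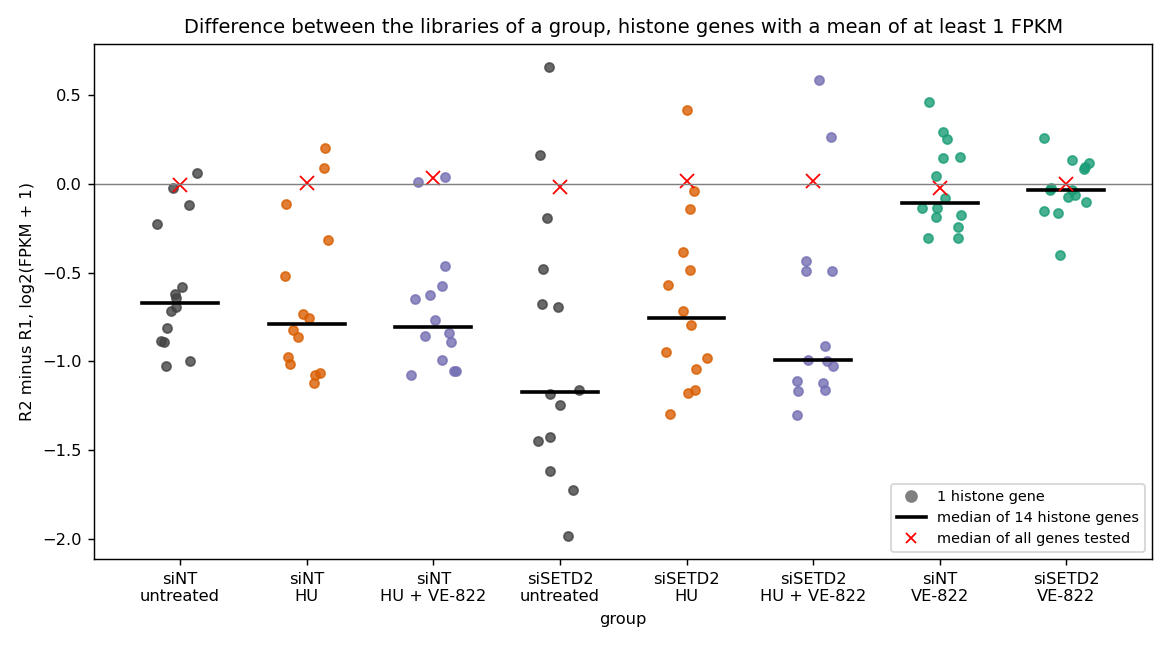
R2 minus R1 of log2(FPKM + 1) in each of the 8 groups, 1 point for each of the 14 histone genes, with their median as a bar and the median of all 13088 genes tested as a red cross. The bars lie between −1.17 and −0.67 in the 6 groups without VE-822 alone, at −0.11 and −0.031 with VE-822 alone, and the crosses lie near 0.

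The size of the difference between the numbers varied from gene to gene, and these sizes were not tested against each other. It was −1.19 ± 0.10 (log2(FPKM + 1), SE) for HIST1H2AC, −1.13 ± 0.14 for HIST1H4I, −1.08 ± 0.11 for HIST1H2BK and −1.0 ± 0.07 for HIST2H2BE. It was −0.56 ± 0.13 for HIST1H1C, −0.43 ± 0.09 for HIST1H3E, −0.27 ± 0.15 for HIST1H4J and −0.15 ± 0.09 for HIST4H4, and the last pair did not pass the test. Of the 37 genes below 1 FPKM that had fragments in at least 2 libraries, 6 were also lower in R2 in a fit of 36055 genes without the filter, of which 8.49% were lower. They were HIST1H4E, HIST1H2BN, HIST1H4K, HIST1H2BF, HIST1H3H and HIST1H1T. No other difference between R1 and R2 libraries is given in the labels, and no batch is named there.

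Other gene groups differed between the numbers too, and not in the same direction. Of 39 S-phase genes tested (E2F targets such as the MCM helicase and ORC1), 26 were higher in R2 and CCNE1 was lower, beside 22% higher and 19.2% lower among all genes. Of 11 replication-independent histone genes, 5 were higher and none lower, namely H1F0, H1FX, H2AFV, H2AFX and H2AFY2. RNAs without a poly(A) tail summed to 13.2 to 18.2 fragments per 1000000 in the 6 R1 libraries and 18.3 to 24.1 in the 6 R2 libraries, without overlap. Among single genes, 7.88% had all 6 R2 libraries above all 6 R1 libraries. Of 4 RNAs without a poly(A) tail tested singly, only SNORA73B passed, at 0.63 ± 0.13. RN7SL2 was at 0.52 ± 0.21, SCARNA13 at −0.19 ± 0.18 and SNORD17 at −0.10 ± 0.10. Of the mesenchymal markers tested, 6 of 7 were higher in R2 and VIM was lower, and of 4 epithelial markers CLDN4 and KRT8 were higher. NEAT1 and MT-RNR2, RNAs partly without a poly(A) tail, were also higher. The part of any of these in the histone difference was not tested.

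Most histone genes had lower values in HU, by small amounts, and few held up against the spread between libraries. Fewer cells making a transcript and less of it per cell cannot be told apart in such bulk RNA. In log2(FPKM + 1) averaged over the siRNAs, 13 of the 14 were lower in HU than in untreated cells, with a median of −0.25 against 0.01 for all genes, of which 46.5% were lower. Leaving out 1 library moved this median between −0.45 and 0.03 and turned the sign of 9 of the 14 genes, and the median was above 0 without untreated siSETD2 R1. In such fits without the block, here and below, the group keeps R1 or R2 alone, so the R1 to R2 difference enters the change. None passed the limma test (adjusted p under 0.05), and none had an unadjusted p under 0.05. The background was small, since 0.107% of all genes passed. With the replicate block, which takes the R1 to R2 difference out of the error, HIST1H2BJ fell by 0.67 ± 0.12 (SE, adjusted p = 0.0287). This count of 1 stands against 1.6% of all genes passing, and 0.749% in the lower direction. HIST1H2BJ was lower in 4 of 4 same-numbered pairs, with FPKM ratios of 0.618, 0.631, 0.453 and 0.751. Its call was lost without the 4 VE-822-alone libraries (adjusted p = 0.0567) and with the block over all 8 groups (adjusted p = 0.150).

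HIST1H2AC came next, at −0.55 ± 0.12 with the block (adjusted p = 0.0539) and ratios of 0.781, 0.695, 0.514 and 0.680. With voom on the recovered fragments and the block it passed (adjusted p = 0.0181), as did HIST1H2BJ (adjusted p = 0.00609). Without the untreated siSETD2 R1 library, which held the highest level of 8 of the 14 genes, HIST1H2BJ was at −0.53 and HIST1H2AC at −0.39 with the block. No other library was left out with the block for the HU comparison, and this one was chosen after seeing the data. With all libraries, limma and the block, HIST1H4I was at −0.44 ± 0.18, HIST1H2BD at −0.36 ± 0.09, HIST2H2AC at −0.35 ± 0.13, HIST1H4H at −0.34 ± 0.11, HIST1H2BK at −0.28 ± 0.13 and HIST1H3E at −0.23 ± 0.11, with adjusted p of 0.0883 or above in each. The remaining 6 were between −0.17 (HIST2H2BE) and 0.05 (HIST1H4J). Lower values in all 4 same-numbered pairs were found for 6 of the 14, as for 11.1% of all genes, and higher values in all 4 for none, against 13.4%. These 6 were HIST1H2AC, HIST1H2BD, HIST1H2BJ, HIST1H2BK, HIST1H3E and HIST2H2AC.

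The 57 genes below 1 FPKM were summed. A few carry the sum: of its 4372 fragments over all libraries HIST1H2BN holds 1362 and HIST1H4E 612, and the 6 genes with the most fragments hold 73.2%. Untreated libraries held 13.2 and 8.78 fragments per 1000000 (R1 and R2) with siNT, and 19.1 and 10.3 with siSETD2. HU libraries held 10.4 and 5.84 with siNT, and 13.2 and 6.34 with siSETD2. The sum was lower in HU in 4 of 4 same-numbered pairs, with ratios from 0.614 to 0.786. With both drugs it was 14.7 and 8.59 with siNT and 14.4 and 7.03 with siSETD2, above HU in 4 of 4 pairs, with ratios from 1.09 to 1.47. In the 32 of these genes whose model ends at the stop codon, HU was below untreated in 4 of 4 pairs, and both drugs were above HU in 3 of 4, with 17 against 31 fragments in siSETD2 R2. Each library's sum rests on 153 to 485 fragments, and it was not tested. The sum of the 14 genes moved the same way, with ratios of 0.609 to 0.896 for HU to untreated and 1.14 to 1.39 for both drugs to HU. None of the 37 low genes tested singly passed in either comparison.

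**Figure D4:**
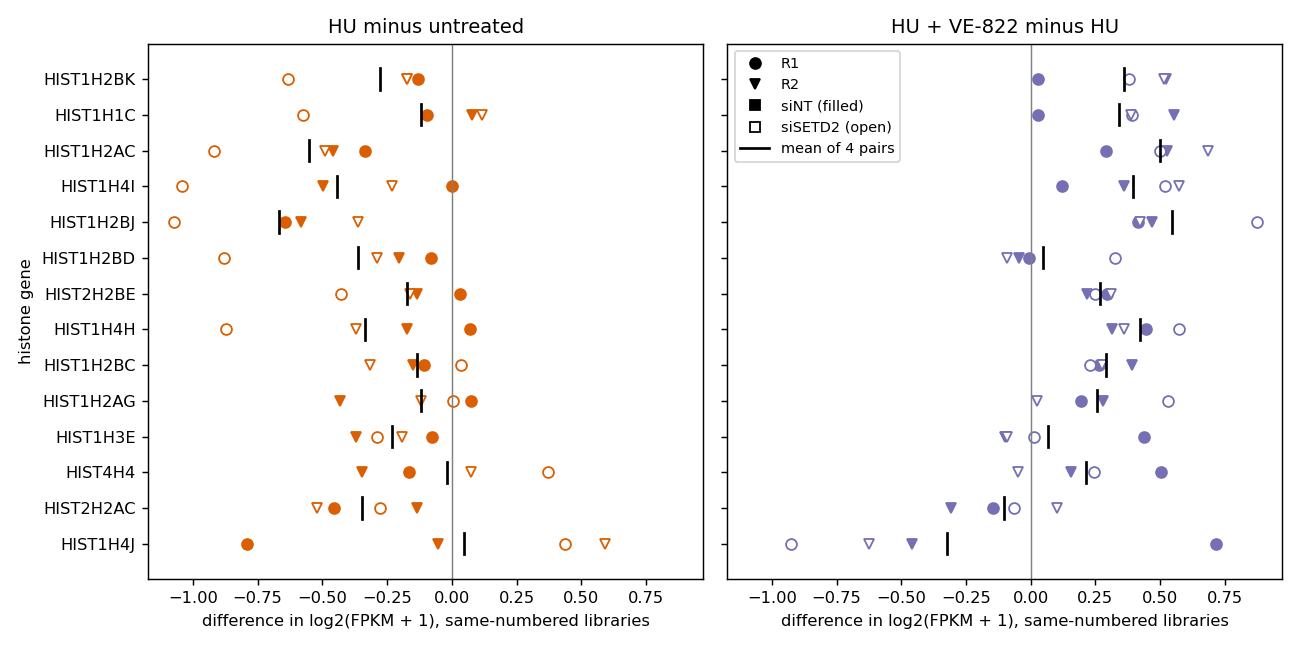
Differences in log2(FPKM + 1) between same-numbered libraries for the 14 genes, HU minus untreated on the left and HU with VE-822 minus HU on the right, with circles for R1, triangles for R2, filled symbols for siNT, open symbols for siSETD2 and the mean of 4 pairs as a bar. For HIST1H2BJ all 4 pairs lie below 0 on the left and above 0 on the right. Of all genes tested, 11.1% were lower in all 4 HU pairs and 17.7% were higher in all 4 pairs with VE-822 added. Both panels use the same HU libraries.

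Adding VE-822 to HU gave higher values in most of the genes. The comparison shares its HU libraries with HU against untreated, so a low value in them moves both in opposite directions. Of the 14 genes 12 were higher with both drugs than with HU alone, with a median of 0.28 against 0.01 for all genes. Leaving out 1 library moved this median between 0.064, without siSETD2 HU R2, and 0.52, without siSETD2 HU and VE-822 R2, and turned the sign of 4 of the 14 genes. None passed by limma, with 0 at an unadjusted p under 0.05, and 0.00764% of all genes passed. With the replicate block none passed either, with 1.31% of all genes passing and 7 of the 14 at an unadjusted p under 0.05. The largest was HIST1H2BJ, at 0.54 ± 0.12 (adjusted p = 0.0624 with the block), with FPKM ratios of 1.36, 1.45, 1.91 and 1.40. HIST1H2AC was at 0.50 ± 0.12 (adjusted p = 0.0738), with ratios of 1.24, 1.51, 1.44 and 1.71. HIST1H4H was at 0.42 ± 0.11 (adjusted p = 0.0901), with ratios of 1.45, 1.38, 1.61 and 1.45.

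These 3 genes passed with the block when the counts were fitted with voom (adjusted p of 0.0286, 0.0414 and 0.0428), a fit chosen after seeing the data. The only library left out with the block for this comparison was untreated siSETD2 R1. It is in neither group compared, so that fit is not counted as a check here. With all libraries, limma and the block, HIST1H4I was at 0.39 ± 0.18, HIST1H2BK at 0.36 ± 0.13, HIST1H1C at 0.34 ± 0.16, HIST1H2BC at 0.29 ± 0.08, HIST2H2BE at 0.27 ± 0.08, HIST1H2AG at 0.26 ± 0.13 and HIST4H4 at 0.21 ± 0.11. HIST1H3E and HIST1H2BD were near 0, at 0.07 ± 0.11 and 0.05 ± 0.09, and HIST2H2AC (−0.10 ± 0.13) and HIST1H4J (−0.32 ± 0.18) were lower. Higher values in all 4 same-numbered pairs were found for 9 of the 14, as for 17.7% of all genes, and lower values in all 4 for none, against 16.5%.

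Against untreated cells, HU with VE-822 left the histone genes without a common direction. Of the 14, 7 were higher and 7 lower, with a median of 0.02 against 0.02 for all genes, and of −0.29 to 0.32 when 1 library was left out. None passed by limma (0.0382% of all genes did, and 1 of the 14 had an unadjusted p under 0.05) or with the block (7.3% of all genes). HIST2H2AC was lowest, at −0.45 ± 0.13 (adjusted p = 0.0620 with the block).

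Genes that make, process and degrade histone mRNA gave few calls under HU. None of 31 genes for transcription and processing and none of 30 for decay passed by limma, with 1 at an unadjusted p under 0.05 in each list. With the block CCNE2 (a cyclin of CDK2, which acts on NPAT) rose by 0.73 ± 0.08 (adjusted p = 0.00272, and 0.0553 with the block over all 8 groups). Of all genes 1.6% passed with the block in 6 groups. For the genes named next, changes and SEs are from limma without the block. SLBP was at 18.7 to 30.9 FPKM over the 16 libraries and at 0.05 ± 0.12 in HU against untreated. NPAT was at 0.14 ± 0.11, its partner CASP8AP2 at 0.14 ± 0.13 and UPF1 at 0.18 ± 0.09. LSM10 was at −0.22 ± 0.15, LSM11 at 0.05 ± 0.09, ZNF473 at −0.00 ± 0.07 and ERI1 at −0.04 ± 0.08. When VE-822 was added to HU, none of these lists held a call, and SLBP was at 0.20 ± 0.12 without the block. Against untreated cells, with the block, CCNE1 and CCNE2 were higher with both drugs among the 31, and UPF1 among the 30, by 0.32 ± 0.08 (adjusted p = 0.0341, and 0.0503 with the block over all 8 groups). In the same comparison DNAJC9, MCM2, PCNA and UBN1 were higher among 27 genes for histone chaperones and assembly, and CCNE2, CDC25A, MCM2, CCNE1, MCM6, E2F1, PCNA and TYMS among 39 S-phase genes, while H1F0 was lower, beside 7.3% of all genes passing. None of the 27 passed in HU or when VE-822 was added to it.

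Replication-independent histone genes, whose mRNA carries a poly(A) tail, had a clearer change in CENPA, the centromeric H3 variant. It was at 11.2 to 13.7 FPKM in the 4 untreated libraries, 6.12 to 7.26 in the 4 HU libraries and 12.9 to 17.9 with both drugs. CENPA fell in HU by 0.85 ± 0.10 (limma, adjusted p = 0.0155) and rose when VE-822 was added by 1.07 ± 0.10 (adjusted p = 0.00348), and these comparisons share the HU libraries. It was 1 of 11 tested in either comparison, beside 0.107% of all genes passing in HU and 0.00764% when VE-822 was added. With the block H1F0, the linker histone H1.0, also fell in HU, by 1.12 ± 0.11 (adjusted p = 0.00184), and H2AFV, an H2A.Z variant, rose with VE-822 by 0.33 ± 0.07 (adjusted p = 0.0470, and 0.144 with the block over all 8 groups). With the block in 6 groups 1.6% of all genes passed in HU and 1.31% when VE-822 was added. In the S-phase list, 38 of 39 were higher in HU with a median of 0.17, against 0.01 for all genes. None passed by limma, with 5 at an unadjusted p under 0.05. CCNE2, CDC25A and ORC1 rose with the block in 6 groups, beside 0.848% of all genes. None of the 3 did with the block over all 8.

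VE-822 alone was compared with untreated cells with the limit that its 4 libraries stand apart. Of the 14 genes 11 were lower, with a median of −0.37 against −0.03 for all genes, and of −0.66 to −0.11 when 1 library was left out. None passed by limma, while 24.7% of all genes did, and 1 of the 14 had an unadjusted p under 0.05. The lowest was HIST1H2BK, at −1.04 ± 0.42 (adjusted p = 0.0928) without the block and ± 0.13 (adjusted p = 1.19e-04) with it. With the block 7 of the 14 fell, against 24.2% of all genes, and 44.9% passed in either direction. They were HIST1H1C, HIST1H2BC, HIST1H2BD, HIST1H2BJ, HIST1H2BK, HIST1H4H and HIST1H4I. This depended on which number the untreated library had. The 4 VE-822-alone libraries lay below both untreated R1 libraries in 10 of the 14 (30.1% of all genes), and below both untreated R2 libraries in 1, HIST1H2BK (26.4%). In this comparison, by limma, RUNX2 and FN1 rose and VIM fell among the mesenchymal markers, epithelial KRT18 fell and the blood marker CD3D rose, and their part in the histone values was not tested. The libraries lay above both untreated R2 libraries in 3, HIST1H2AC, HIST1H2AG and HIST2H2BE (23.2%).

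HU with VE-822 was likewise compared with VE-822 alone. None of the 14 passed by limma, while 29.5% of all genes did, with 3 of the 14 at an unadjusted p under 0.05, and HIST1H2BK was at 1.13 ± 0.42 (adjusted p = 0.0654). With the block 7 rose and HIST2H2AC fell, against 28% and 20.8% of all genes, or 48.9% in either direction. Here, as for VE-822 alone against untreated, the block sets the VE-822-alone libraries midway between R1 and R2, which was not tested. The counts of the other gene lists are read against the 24.7% of all genes that passed for VE-822 alone against untreated. Of 31 genes for transcription and processing, 2 rose (MIF4GD and CSTF2T) and 6 fell (CTIF, CSTF3, LSM10, CDK2, CCNE1 and FIP1L1) with VE-822 alone against untreated, by limma, and the latter were between −0.95 and −0.34. Of 30 decay genes ERI1, EXOSC3, LSM5 and LSM3 fell, by −0.47 to −0.39. Of 27 chaperone genes SETDB1 rose by 0.37, and DAXX, HAT1 and SSRP1 fell, by −0.48 to −0.28. Of 39 S-phase genes CDC25A, CCNE1, RRM2 and CDC6 fell, by −0.56 to −0.35, and of 11 replication-independent histone genes H2AFY fell, by −0.26. Between HU with VE-822 and VE-822 alone, where 29.5% of all genes passed and 17.5% rose, 9 of the 31 genes for transcription and processing rose (CCNE1, CTIF, CSTF3, LSM10, CDK2, YY1, CSTF2, POU2F1 and SLBP, by 0.24 to 1.03) and MIF4GD fell. Of the 30 decay genes 8 rose (ERI1, STAU1, LSM3, LSM5, LSM4, LSM1, EXOSC3 and LSM7, by 0.35 to 0.69). Of the 27 chaperone genes DAXX, SSRP1, HAT1, NAP1L1, ASF1B, SUPT16H and NAP1L4 rose, by 0.27 to 0.48, and SETDB1 fell. Of the 11 replication-independent histone genes H3F3A and H2AFY rose, by 0.37 to 0.52, and of the 39 S-phase genes CDC25A, CCNE1, CDC6, RRM2 and SLBP did, by 0.37 to 1.03.

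SETD2 knockdown left the histone genes without a call. With siSETD2, 10 of the 14 had higher values than with siNT, averaged over the 4 treatments, with a median of 0.10 against −0.01 for all genes. The median ranged from −0.05 to 0.24 when 1 library was left out, and was below 0 without untreated siSETD2 R1, siNT HU and VE-822 R2, or siSETD2 HU and VE-822 R1. None passed by limma (0.13% of all genes did, and 2 of the 14 had an unadjusted p under 0.05) or with the block (3.88%). HIST1H1C was at 0.27 ± 0.19 and HIST1H4J at 0.37 ± 0.15, by limma without the block. Higher values with siSETD2 in all 6 same-numbered pairs, VE-822 alone left aside, were found for 2 of the 14, HIST1H1C and HIST1H2AC, as for 5.78% of all genes. The median was 0.27 within R1 and 0.05 within R2, and in R1 the untreated siSETD2 library was the highest of all, with 347 fragments per 1000000 for the sum of the 14 against 219 in untreated siNT. In R2 the same sums were 123 and 122.

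The response to HU did not differ by test between siSETD2 and siNT in any of the 14 genes, nor did the response to VE-822 added to HU (limma, 0 of 13088 genes passed in either). In the response to HU, 1 of the 14 had an unadjusted p under 0.05, HIST1H4J, which rests on 184 fragments over all libraries, and in the response to added VE-822 none did.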

How the data were processed

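The authors deposited 1 table of FPKM values for 58735 genes in 16 U2OS libraries, made from total RNA (RNeasy) with the NEBNext Ultra RNA kit, per the labels' protocols. The submitters' processing notes name FastQC, STAR 2.6.1d, featureCounts 1.5.0-p3, DESeq2 1.26.0 and hg38. The annotation release, strand setting, treatment of multiple positions and any poly(A) selection were not given in the sources used here. GENCODE 29 matched every identifier in the table. Sequences upstream are RefSeq's, GRCh38.p14.

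Groups came from the sample labels. Whole fragments were recovered from the deposited FPKM values: 100% of values were whole within 0.01. The 13088 genes whose mean reached 1 FPKM were tested with limma 3.58.1 (R 4.3.3) on log2(FPKM + 1) (trend, 1 mean per group, two-sided, Benjamini-Hochberg, threshold 0.05), after the code was tested on simulated data. A fold change on this scale understates the change of low genes. The replicate numbers were checked by the correlation of R1 minus R2 across genes and pair the 6 groups other than VE-822 alone, where every pair of groups exceeded 0.1. The comparison of R2 with R1, voom with the block, and the blocked fits without the VE-822-alone libraries or without 1 library were chosen after seeing the data. Figures were drawn with matplotlib 3.10.9.

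By rule, values in every library are given for the top histone gene of each class, the 10 of highest mean and every one that passed, means for those between 0.5 and 2 FPKM, and from each list up to 10 genes that passed, with SLBP, NPAT, UPF1, CASP8AP2, LSM10, LSM11, ZNF473 and ERI1 always. The members and lists were chosen with earlier results of these data known. Alternatives were a pseudocount of 0.1, no filter or a minimum of 5 FPKM, scaling by recovered totals, voom on recovered fragments, replicate blocks, leaving out the VE-822-alone libraries and leaving out each library.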

Additional observations from a re-analysis of the deposited data

How the results depend on the processing

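The numbers R1 and R2 pair the libraries of 6 groups. Fitted with a replicate block in these 6, the number of the 14 genes called went from 0 to 1 for HU against untreated, 7 for VE-822 against untreated and 8 for HU with VE-822 against VE-822, and stayed at 0 for HU with VE-822 against HU, HU with VE-822 against untreated, siSETD2 against siNT and both interactions. With the block over all 8 groups the counts were 3 for VE-822 against untreated and 5 for HU with VE-822 against VE-822. With voom and the block in 6 groups they were 2 for HU against untreated, 3 for HU with VE-822 against HU, 7 for VE-822 against untreated and 7 for HU with VE-822 against VE-822. Without the filter 1 gene was called for HU with VE-822 against VE-822, HIST1H4C. For R2 against R1 the median went to −0.11 without the filter, which adds low genes, and the count to 6 with a minimum of 5 FPKM, which leaves fewer genes to test.

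Fits without 1 library had no block, apart from those for R2 against R1. A further fit without untreated siSETD2 R1 had the block in 6 groups and is included in the ranges. Where there was no block, the group keeps R1 or R2 alone, so the R1 to R2 difference enters its change. In these fits the lone library of a group is assumed to vary like the other groups. The median of the difference in HU response between siRNAs ranged from −0.81 to 0.39, the former without untreated siSETD2 R2. The change of HIST1H2BJ kept its sign, at −1.02 to −0.31 in HU and 0.25 to 0.84 with VE-822 added. In HU against untreated the sign turned for 9 genes: HIST1H1C (−0.41 to 0.18), HIST1H2AG (−0.32 to 0.080), HIST1H2BC (−0.39 to 0.13), HIST1H2BK (−0.68 to 0.13), HIST1H4H (−0.70 to 0.027), HIST1H4I (−0.94 to 0.054), HIST1H4J (−0.11 to 0.21), HIST2H2BE (−0.48 to 0.14) and HIST4H4 (−0.11 to 0.024). With VE-822 added to HU it turned for 4: HIST1H2AG (−0.068 to 0.58), HIST1H2BD (−0.22 to 0.31), HIST1H3E (−0.15 to 0.28) and HIST2H2AC (−0.25 to 0.043). HIST1H4J in HU was also at −0.00176 with a pseudocount of 0.1, −0.013 with voom and −0.064 with voom and the block. How far the R1 to R2 difference sets the ranges without 1 library was not tested. Each group holds 2 libraries, and 27 of the 71 genes have at most 10 fragments over all libraries, which limits the precision of their values.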
